A study of Mus musculus with 18 samples.

Results

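The genes described here encode the protein parts of the mitochondrial ribosome and of the machines that bring proteins into mitochondria. They were taken as the protein-coding genes of the count table whose GENCODE M21 symbol starts with Mrpl, Mrps, Tomm or Timm, which gave 104 of 55487 genes. By prefix, 49 were classed as large subunit (Mrpl) and 29 as small subunit (Mrps) genes. Another 10 were classed with the outer membrane translocase (Tomm), and 16 with the inner membrane translocases and their chaperones (Timm). The classes follow the symbol alone and can differ from the place of a protein. The 104 genes lie on 20 chromosomes. The prefix also takes in a few proteins that are not parts of these machines, such as Tomm34, a cytosolic cochaperone, Timmdc1, an assembly factor of respiratory complex I, and Mrps36, now placed in the oxoglutarate dehydrogenase complex.

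Mitochondria keep their own small genome, which encodes subunits of the respiratory chain, and their own ribosomes translate those messages. The proteins of that ribosome, and nearly all other mitochondrial proteins, are encoded in the nucleus, made in the cytosol and imported. Tom20 and Tom70 are receptors on the surface, Tom40 forms the pore of the outer membrane, the Tim23 complex carries proteins with a presequence across or into the inner membrane, and the Tim22 complex inserts carrier proteins that small Tim chaperones bring through the intermembrane space. In T cells, mitochondrial biogenesis is known to accompany activation and the exit from quiescence.

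RNA was measured in splenic and lymph node CD8+ T cells of wild-type C57BL/6J mice, sorted by the surface marker 41BB (CD137), a costimulatory receptor encoded by Tnfrsf9, into 41BB+ cells (which the study calls Tpam) and 41BB- conventional cells. Cells were lysed without culture (0 h), or first kept for 24 h or 72 h with Dynabeads carrying antibodies to CD3 and CD28, which stimulate T cells through the antigen receptor and a costimulatory receptor. The 6 groups were thus 41BB+ and 41BB- cells at 0 h, 24 h and 72 h, each with 3 libraries from biological triplicates, and all cells at 24 h and 72 h had received the beads. The library titles number the replicates Exp01 to Exp03 in every group without saying what a number marks, and the main fit did not pair them. The sources used here do not state the ages and sexes of the mice, or whether a replicate was 1 animal or a pool. P-values therefore measure the spread between these libraries.

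Total counts per library ran from 3085241 to 4239795, and 13150 genes passed the filter on low counts and were tested. Levels are counts scaled to 1e+06 of the library total (CPM), or per kilobase of exon as well (RPKM) where genes are compared with each other. Differences are log2 fold changes (log2FC) with their standard error (SE), and a gene passed the test at an adjusted p under 0.05 in edgeR's quasi-likelihood test with Benjamini-Hochberg adjustment over all genes tested. In bulk RNA, fewer cells of a type and less RNA per cell cannot be told apart, and CPM values are relative to all other RNA of a library. At 0 h Tnfrsf9 averaged 389 ± 27.5 CPM in 41BB+ cells, against 6.74 ± 1.75 CPM in 41BB- cells (SD, n = 3 each; log2FC 5.83, adjusted p = 2.48e-13), and all means here are given with the SD of 3 libraries. Cd8a and Cd8b1 were abundant in all libraries, and Cd4 had 0 to 4 counts. Of the B cell markers, Cd79a and Ms4a1 had at most 5 and 3 counts in a library, Pax5 at most 15 and Cd79b at most 39, while the list's sum, mostly Ighm, was 95.2 to 98.4 CPM in 41BB+ and 232 to 256 CPM in 41BB- libraries at 0 h, and 531 to 592 CPM in 41BB+ and 420 to 501 CPM in 41BB- libraries at 72 h. The 6 myeloid markers summed to at most 71.3 CPM, reached in a 41BB+ library at 24 h, and all 6 were at 0 in both groups at 72 h. Summed markers reached at most 3.41 CPM for NK cells, 29.2 CPM for dendritic cells, 5.01 CPM for erythroid cells and platelets, and 50.6 CPM for CD4 T cells. The summed CD8 T cell markers were 1996 to 2199 CPM in 41BB+ and 2837 to 3214 CPM in 41BB- libraries at 0 h. The part of these differences in the results below was not tested.

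Of the 104 genes, 97 were tested, namely 47 Mrpl, 28 Mrps, 8 Tomm and 14 Timm genes. Mrpl33, Mrpl53, Mrps6 and Tomm6 were listed with 0 counts in all 18 libraries. In GENCODE M21, exons of other genes cover 88.0% of the exon bases of Mrpl53, 84.2% of Tomm6, 19.9% of Mrps6 and 3.6% of Mrpl33. Timm10b had 1 count in all libraries together, Tomm20l had 13 and Timm8a2 had 23, and none of these was tested. Other members whose exons overlap those of another gene over a large part of their length, such as Mrps34 (77.8%), Mrps25 (69.8%) and Tomm40l (64.3%), carry values that depend on how shared reads were assigned.

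Start regions of 4 members are shown because they carry the features counted further on. They were chosen after their values were seen, and each runs from 250 bases before to 50 bases after the annotated start, 5′ to 3′ on the strand of the gene. All sequences are from RefSeq on GRCm38.p6, and all 4 genes lie on the minus strand. The windows are chr7:28311997-28312296 for Timm50, the presequence receptor of the Tim23 complex, chrX:134541621-134541920 for Timm8a1 and chr12:71136626-71136925 for Timm9, both small intermembrane chaperones, and chr14:32201842-32202141 for Timm23, the channel subunit of the Tim23 complex. Timm50 and Timm8a1 had the largest log2FC between populations at 0 h of the tested members, Timm8a1 and Timm9 the largest decreases from 24 h to 72 h in 41BB+ cells, and Timm23 did not pass between the populations at any time. Capitals mark matches on either strand to CACGTG, to CCGGAAG, to GCATGCG or to ATGGCGG.
Timm50: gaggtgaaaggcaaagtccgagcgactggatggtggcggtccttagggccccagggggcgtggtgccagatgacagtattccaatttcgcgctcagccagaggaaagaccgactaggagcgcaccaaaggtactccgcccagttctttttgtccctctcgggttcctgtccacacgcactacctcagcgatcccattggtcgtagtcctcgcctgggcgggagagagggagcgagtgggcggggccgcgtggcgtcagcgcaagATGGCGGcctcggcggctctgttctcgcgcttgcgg
Timm8a1: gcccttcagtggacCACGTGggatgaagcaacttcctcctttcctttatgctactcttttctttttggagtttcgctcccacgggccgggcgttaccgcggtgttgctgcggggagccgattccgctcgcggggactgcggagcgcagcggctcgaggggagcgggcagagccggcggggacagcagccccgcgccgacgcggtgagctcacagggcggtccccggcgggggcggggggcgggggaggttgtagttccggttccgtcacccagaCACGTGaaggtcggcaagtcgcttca
Timm9: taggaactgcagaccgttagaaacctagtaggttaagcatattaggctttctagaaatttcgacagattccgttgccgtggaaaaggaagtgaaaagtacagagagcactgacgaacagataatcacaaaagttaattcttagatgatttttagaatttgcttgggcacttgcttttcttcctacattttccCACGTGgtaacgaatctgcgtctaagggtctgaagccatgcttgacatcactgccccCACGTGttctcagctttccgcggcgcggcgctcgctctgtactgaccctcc
Timm23: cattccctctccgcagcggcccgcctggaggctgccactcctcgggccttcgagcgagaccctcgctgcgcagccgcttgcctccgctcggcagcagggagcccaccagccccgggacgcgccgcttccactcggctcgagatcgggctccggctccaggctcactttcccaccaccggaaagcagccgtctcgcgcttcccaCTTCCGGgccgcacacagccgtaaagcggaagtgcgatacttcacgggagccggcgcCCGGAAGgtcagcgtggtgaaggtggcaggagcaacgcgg
Counted from the start (the first transcribed base is 1, the base before it -1), Timm50 holds ATGGCGG at 15. Timm8a1 holds CACGTG at -236 and 25, and Timm9 holds CACGTG at -58 and -1. The Timm23 window holds CCGGAAG at -47, there on the opposite strand (CTTCCGG), and at 11.

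Messages of all 4 classes made up a larger part of the RNA in resting 41BB+ than in resting 41BB- cells, reached the same range in both populations at 24 h, and made up a smaller part in 41BB+ than in 41BB- cells at 72 h. The 104 genes together took 0.435%, 0.442% and 0.431% of counts in the 41BB+ libraries at 0 h, against 0.221%, 0.225% and 0.240% in the 41BB- libraries. At 24 h the share was 0.519% ± 0.0209 in 41BB+ and 0.528% ± 0.0427 in 41BB- cells (SD, n = 3 each), and the libraries overlapped. At 72 h it was 0.232% ± 0.0224 in 41BB+ and 0.320% ± 0.0230 in 41BB- cells, with no overlap. The share of 41BB+ cells at 72 h was thus close to that of 41BB- cells before stimulation (0.229% ± 0.00966). Each class had this order by itself. Tomm genes, for example, took 0.0799% ± 0.00158 in 41BB+ and 0.0377% ± 0.00385 in 41BB- cells at 0 h, and 0.0356% ± 0.00170 in 41BB+ and 0.0502% ± 0.00210 in 41BB- cells at 72 h. Mitochondrially encoded genes, as a summed share, averaged 8.73% ± 0.0301 in 41BB+ cells, against 9.73% ± 1.45 in 41BB- cells, at 0 h. The libraries overlapped there, and 41BB- replicate 3 had 11.4%, against 9.05% and 8.74% in replicates 1 and 2. At 72 h this share averaged 10.9% ± 0.473 in 41BB+ cells, against 9.14% ± 0.373 in 41BB- cells. Gene by gene, the 13 mitochondrially encoded protein genes had a median log2FC of 0.25 at 0 h (2 higher, 0 lower). At 72 h their median was -0.03, and 0 passed.

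**Figure D1:**
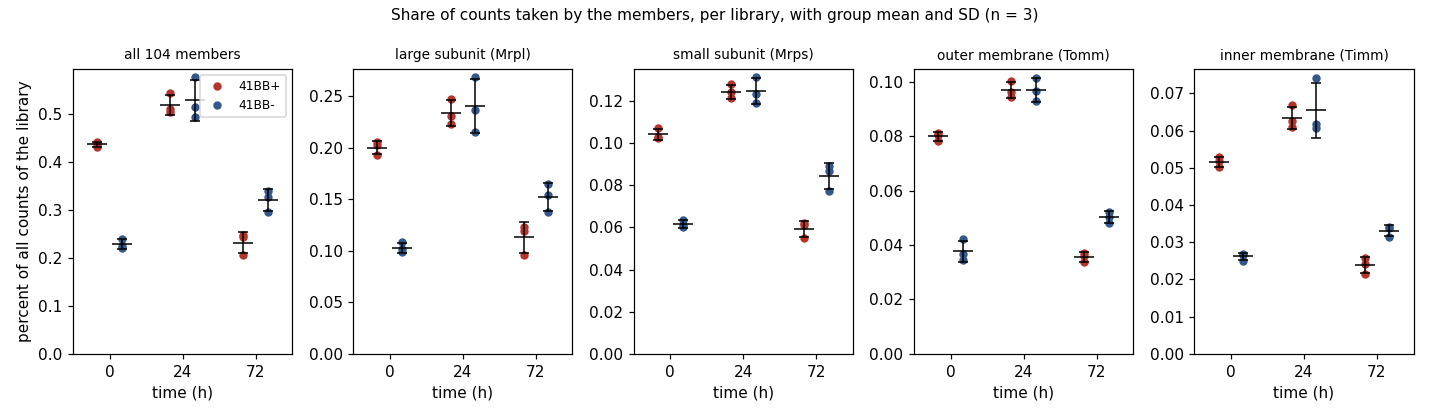
Percent of all counts of a library taken by the 104 members (left panel) and by each of the 4 classes, at 0, 24 and 72 h of stimulation. Points are libraries, black bars the group mean and SD (n = 3), with 41BB+ left of 41BB- at each time. The 41BB+ libraries lie above the 41BB- libraries at 0 h (mean 0.436% against 0.229% for all members) and below them at 72 h (0.232% against 0.320%).

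Per kilobase of exon, Mrpl12 had the highest level of the 97 tested members (71.0 RPKM over all 18 libraries), followed by Mrpl18 (66.5 RPKM). The lowest was Mrpl48 (3.20 RPKM). Medians were 26.9 RPKM for Tomm, 17.1 RPKM for Timm, 14.5 RPKM for Mrpl and 10.3 RPKM for Mrps genes. The member with the most counts was Tomm70a, at a mean of 184 CPM. Over the 6 group means, the highest level was in 41BB- cells at 24 h for 45 members, in 41BB+ cells at 24 h for 33 and in 41BB+ cells at 0 h for 13. The lowest was in 41BB- cells at 0 h for 49 members and in 41BB+ cells at 72 h for 46. These 2 groups held the low end for all but 2 of the tested members.

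**Figure D2:**
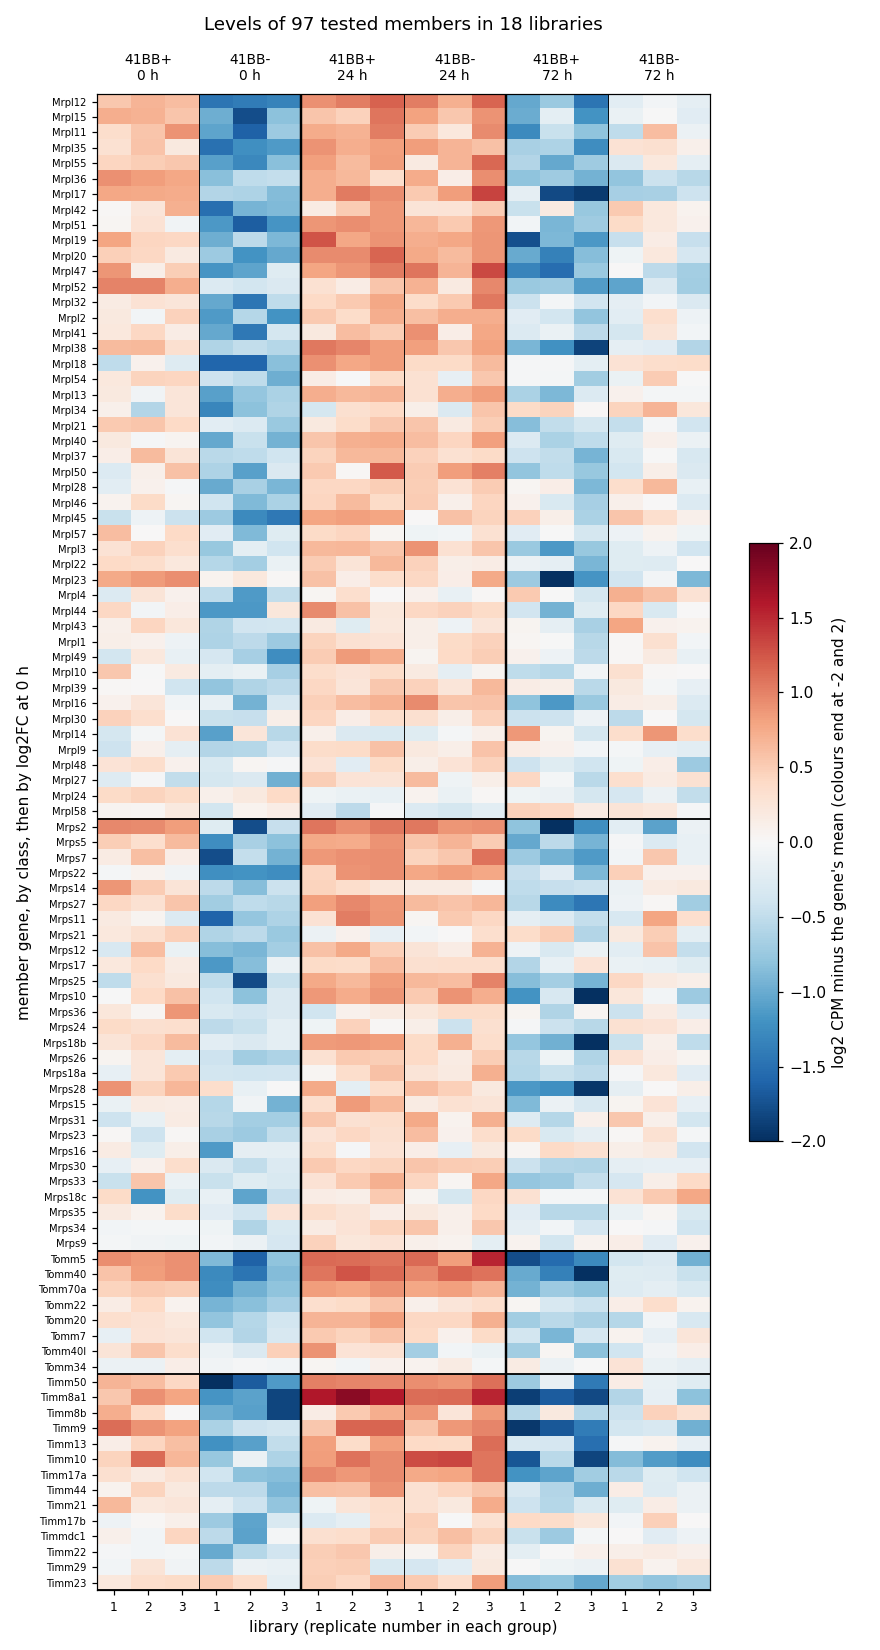
Level of each of the 97 tested members (rows, by class and then by log2FC at 0 h) in each of the 18 libraries (columns), as log2 CPM minus the mean of the gene, from blue (lower) to red (higher). Most rows are red in both groups at 24 h and blue in 41BB- cells at 0 h and in 41BB+ cells at 72 h, the groups with the lowest mean for 49 and 46 members.

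Before stimulation, 78 of 97 members were higher in 41BB+ cells and 0 were lower, where 22.2% of all genes tested were higher and 17.3% lower. The median log2FC was 0.85 over the members and 0.01 over all genes tested. By class, 39 of 47 Mrpl, 21 of 28 Mrps, 6 of 8 Tomm and 12 of 14 Timm genes were higher. All 97 had a log2FC above 0, where 6673 of the 13150 genes tested did. Of the members that passed, 34 were at least 2-fold higher. Over all genes tested, 2725 passed with a change of at least 2-fold in either direction. For 80 members the 3 libraries of 41BB+ cells all lay above the 3 of 41BB- cells, as they did for 27.2% of all genes tested.

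The outer membrane translocase was among the groups with large differences at 0 h. Tomm40 (chromosome 7, 19701313 to 19715438 on GRCm38), the pore, had 125, 145 and 152 CPM in 41BB+ libraries, against 33.5, 29.5 and 44.04 CPM in 41BB- libraries (log2FC 1.97, SE 0.18, adjusted p = 1.17e-09). Tomm5 (chromosome 4, 45105208 to 45108114), a small subunit attached to the pore, had 60.7, 55.5 and 57.9 CPM in 41BB+ libraries, against 16.4, 9.72 and 17.2 CPM in 41BB- libraries (log2FC 1.98, SE 0.22, adjusted p = 3.08e-08). They were 3.903-fold and 3.96-fold higher, with no overlap between the groups. The receptors differed less. Tomm70a (chromosome 16, 57121703 to 57156705), which receives carrier proteins, had 229.5, 234 and 229 CPM in 41BB+ libraries, against 68.2, 84.3 and 91.99 CPM in 41BB- libraries (log2FC 1.49, SE 0.11, adjusted p = 2.63e-11), and its 3 libraries of 41BB+ cells were nearly equal. Tomm22, the central receptor, averaged 52.5 ± 5.99 CPM in 41BB+ cells, against 25.5 ± 2.41 CPM in 41BB- cells (log2FC 1.03, adjusted p = 1.63e-05). Tomm20, the presequence receptor, averaged 162 ± 9.82 CPM in 41BB+ cells, against 89.4 ± 12.4 CPM in 41BB- cells (log2FC 0.84, adjusted p = 8.27e-06). Tomm34, the cochaperone that is no part of the pore complex, had 75.4, 72.95 and 86.3 CPM in 41BB+ libraries, against 75.3, 78.4 and 75.4 CPM in 41BB- libraries, and the groups overlapped (log2FC 0.02, adjusted p = 0.924).

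Among inner membrane genes, the differences at 0 h had a wide range, also between subunits of 1 complex. Timm50 (chromosome 7, 28305516 to 28312072), the receptor shown above, had 57.7, 53.5 and 46.3 CPM in 41BB+ libraries, against 7.13, 10.7 and 15.4 CPM in 41BB- libraries (log2FC 2.22, SE 0.25, adjusted p = 3.44e-08). Timm23 (chromosome 14, 32180162 to 32201898), the channel subunit it hands proteins to, had 49.2, 52.1 and 53.6 CPM in 41BB+ libraries, against 58.6, 53.8 and 35.3 CPM in 41BB- libraries, and the groups overlapped (log2FC 0.06, SE 0.18, adjusted p = 0.832). Timm50 was thus 4.67-fold higher in 41BB+ cells while Timm23 did not pass. Timm44, which tethers the import motor to the channel, averaged 88.1 ± 10.8 CPM in 41BB+ cells, against 47.2 ± 7.45 CPM in 41BB- cells (log2FC 0.89, adjusted p = 8.19e-05). Timm17a, a further subunit of the channel, averaged 43.9 ± 3.001 CPM in 41BB+ cells, against 22.4 ± 4.21 CPM in 41BB- cells (log2FC 0.95, adjusted p = 8.62e-05). Its paralog Timm17b averaged 15.5 ± 0.79 CPM in 41BB+ cells, against 9.39 ± 2.49 CPM in 41BB- cells (log2FC 0.70, adjusted p = 0.042). Timm17b no longer passed in 5 of the 6 fits with 1 library left out, those without 41BB+ replicate 1 (adjusted p = 0.0636), 2 (0.0945) or 3 (0.121) and without 41BB- replicate 1 (0.124) or 2 (0.20), and also in DESeq2 (0.0574). Timm22, the channel of the carrier pathway, averaged 17.6 ± 0.586 CPM in 41BB+ cells, against 11.4 ± 2.499 CPM in 41BB- cells (log2FC 0.61, adjusted p = 0.0427), and no longer passed without 41BB+ replicate 1 (0.0987), 2 (0.0903) or 3 (0.0977) and without 41BB- replicate 1 (0.237) or 2 (0.0838), and also in DESeq2 (0.0653).

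The small Tim chaperones of the intermembrane space were higher in 41BB+ cells at 0 h. Timm8a1 (chromosome X, 134537256 to 134541865) had 28.9, 35.8 and 32.9 CPM in 41BB+ libraries, against 8.06, 8.75 and 4.83 CPM in 41BB- libraries (log2FC 2.16, SE 0.24, adjusted p = 2.84e-08). Timm8b had 30.6, 23.5 and 17.6 CPM in 41BB+ libraries, against 8.68, 8.103 and 4.52 CPM in 41BB- libraries (log2FC 1.73, SE 0.32, adjusted p = 6.59e-05). Every 41BB+ library lay above every 41BB- library for both of these. Timm9 and Timm10 together form the hexamer that carries hydrophobic precursors. Timm9 averaged 47.5 ± 6.68 CPM in 41BB+ cells, against 17.4 ± 1.61 CPM in 41BB- cells (log2FC 1.44, adjusted p = 5.31e-06), and Timm10 averaged 20.96 ± 4.999 CPM in 41BB+ cells, against 8.46 ± 2.25 CPM in 41BB- cells (log2FC 1.3, adjusted p = 0.000986). All 4 passed the test, and the paralog Timm8a2 could not be tested.

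Genes of both ribosomal subunits were higher in 41BB+ cells at 0 h. Mrpl12 (chromosome 11, 120484613 to 120489065), a stalk protein that also binds the mitochondrial RNA polymerase, had 134, 142 and 137 CPM in 41BB+ libraries, against 31.9, 33.7 and 34.7 CPM in 41BB- libraries (log2FC 2.03, SE 0.15, adjusted p = 2.27e-11). Mrpl15, a large subunit protein, had 100.4, 94.1 and 84.95 CPM in 41BB+ libraries, against 29.4, 16.9 and 32.6 CPM in 41BB- libraries (log2FC 1.8, SE 0.24, adjusted p = 1.44e-06). In the small subunit, Mrps2 had 40.9, 38.9 and 36.03 CPM in 41BB+ libraries, against 16.7, 5.51 and 14.2 CPM in 41BB- libraries (log2FC 1.65, SE 0.33, adjusted p = 0.000274), and Mrps5 averaged 91.2 ± 9.49 CPM in 41BB+ cells, against 34.4 ± 7.17 CPM in 41BB- cells (log2FC 1.4, adjusted p = 4.40e-08). The groups did not overlap for any of these 4. Mrps12, the counterpart of the bacterial decoding centre protein S12, averaged 16.4 ± 5.89 CPM in 41BB+ cells, against 8.29 ± 0.667 CPM in 41BB- cells (log2FC 0.97, adjusted p = 0.0123), and no longer passed without 41BB+ replicate 2 (adjusted p = 0.157). The smallest differences of their classes were those of Mrpl58, a ribosome-bound peptidyl-tRNA hydrolase (log2FC 0.13, adjusted p = 0.575), Mrpl24 (log2FC 0.17, adjusted p = 0.378) and Mrps9 (log2FC 0.10, adjusted p = 0.655), of which none passed.

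**Figure D3:**
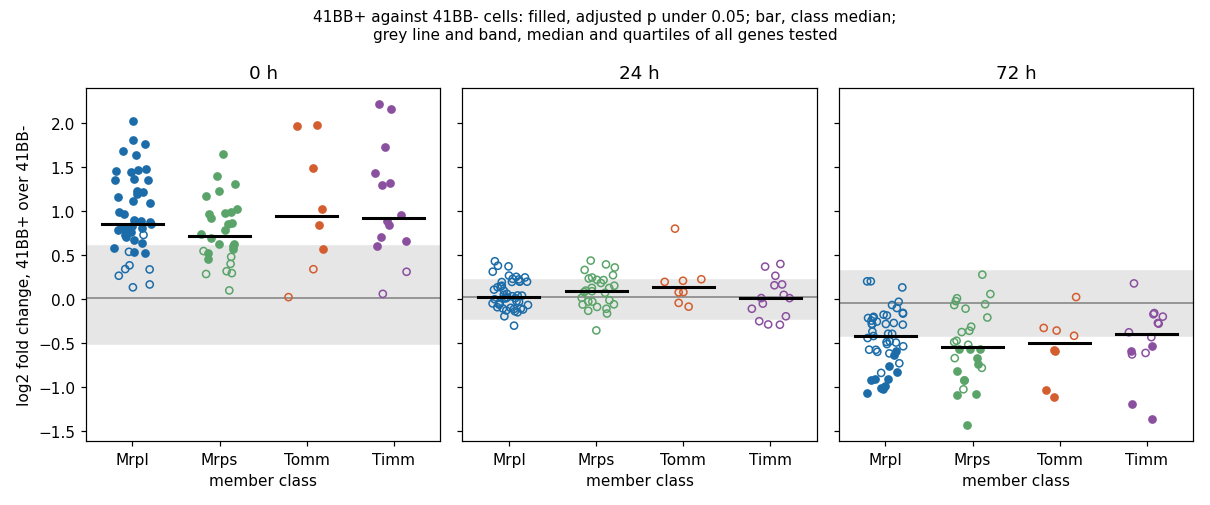
Log2 fold change of 41BB+ over 41BB- cells for each of the 97 tested members, by class, at 0, 24 and 72 h. Filled points passed the test (78 higher at 0 h, 0 at 24 h, 30 lower at 72 h), black bars are class medians, and the grey line and band are the median and quartiles of all genes tested.

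After 24 h of stimulation 0 of 97 members passed between the populations in edgeR's quasi-likelihood test, and 0 in DESeq2, where edgeR called 2.75% of all genes tested. At an unadjusted p under 0.05 there were 3 members, all 3 higher in 41BB+ cells, and the smallest adjusted p was 0.149. The median log2FC was 0.05 over the members and 0.02 over all genes. Tomm40 had 167, 188 and 174 CPM in 41BB+ libraries, against 165, 193 and 184 CPM in 41BB- libraries. Timm50 had 69.2, 66.5 and 66.7 CPM in 41BB+ libraries, against 69.9, 68.1 and 79.5 CPM in 41BB- libraries. Mrpl12 had 164, 176 and 197 CPM in 41BB+ libraries, against 190.2, 155 and 213 CPM in 41BB- libraries. All 3 genes overlapped between the groups, and all 3 had been higher in 41BB+ cells before stimulation. The member with the largest log2FC was Tomm40l, at 30.6, 19.4 and 20.2 CPM in 41BB+ and 10.5, 16.8 and 15.9 CPM in 41BB- libraries (log2FC 0.80, adjusted p = 0.149). A p above the threshold does not show that the levels were equal. With library totals alone as the scale, the medians were -0.07 over the members and -0.10 over all genes.

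After 72 h the direction was the opposite of that at 0 h. Of 97 members 30 were lower in 41BB+ cells and 0 were higher, where 12.2% of all genes tested were lower and 6.71% higher. The lower ones were 11 Mrpl, 11 Mrps, 4 Tomm and 4 Timm genes. The median log2FC was -0.47 over the members and -0.04 over all genes. Of the 97 members 89 had a log2FC below 0, where 6982 of the 13150 genes tested did. For 45 members the 3 libraries of 41BB+ cells all lay below the 3 of 41BB- cells, as they did for 20.5% of all genes. The count of 30 fell to 19 without 41BB+ replicate 3, 41BB- replicate 1 or 41BB- replicate 2 of that time, and to 15 when only these 2 groups were fitted. It rose with a block on replicate number within each time, as given further on.

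The members with the lowest log2FC at 72 h again came from all 4 classes. Timm8a1 had 4.39, 5.24 and 4.58 CPM in 41BB+ libraries, against 11.8, 15.99 and 9.91 CPM in 41BB- libraries (log2FC -1.36, SE 0.27, adjusted p = 0.000558). Timm9 had 5.49, 6.69 and 8.08 CPM in 41BB+ libraries, against 17.9, 18.3 and 11.6 CPM in 41BB- libraries (log2FC -1.19, SE 0.26, adjusted p = 0.00142). Tomm40 had 37.04, 29.7 and 17.2 CPM in 41BB+ libraries, against 65.3, 64.5 and 56.6 CPM in 41BB- libraries (log2FC -1.12, SE 0.19, adjusted p = 9.04e-05). No 41BB+ library reached the lowest 41BB- library for these 3 genes. Mrps28, a small subunit protein with 11.2, 10.8 and 6.195 CPM in 41BB+ libraries, against 23.2, 26.2 and 28.3 CPM in 41BB- libraries, had the lowest log2FC of all (log2FC -1.43, SE 0.26, adjusted p = 0.000217). Tomm5 averaged 9.62 ± 1.68 CPM in 41BB+ cells, against 20.3 ± 4.91 CPM in 41BB- cells (log2FC -1.03, adjusted p = 0.00311), and Tomm70a averaged 84.9 ± 7.21 CPM in 41BB+ cells, against 129.9 ± 4.801 CPM in 41BB- cells (log2FC -0.58, adjusted p = 0.000518). For the ribosomal proteins, Mrpl12 averaged 40 ± 10.4 CPM in 41BB+ cells, against 76.6 ± 4.19 CPM in 41BB- cells (log2FC -0.91, adjusted p = 8.59e-05), Mrpl35 averaged 17.9 ± 4.29 CPM in 41BB+ cells, against 38.5 ± 3.07 CPM in 41BB- cells (log2FC -1.07, adjusted p = 0.000143), and Mrps5 averaged 33.9 ± 6.98 CPM in 41BB+ cells, against 55.2 ± 5.02 CPM in 41BB- cells (log2FC -0.67, adjusted p = 0.00337). The receptor Tomm20 had the values 75.7, 86.1 and 77.03 CPM in 41BB+ and 84.8, 122 and 101 CPM in 41BB- libraries, which overlapped, and did not pass (log2FC -0.33, adjusted p = 0.0918). The highest log2FC at 72 h belonged to Mrps16, with 0.28 (adjusted p = 0.481).

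**Figure D4:**
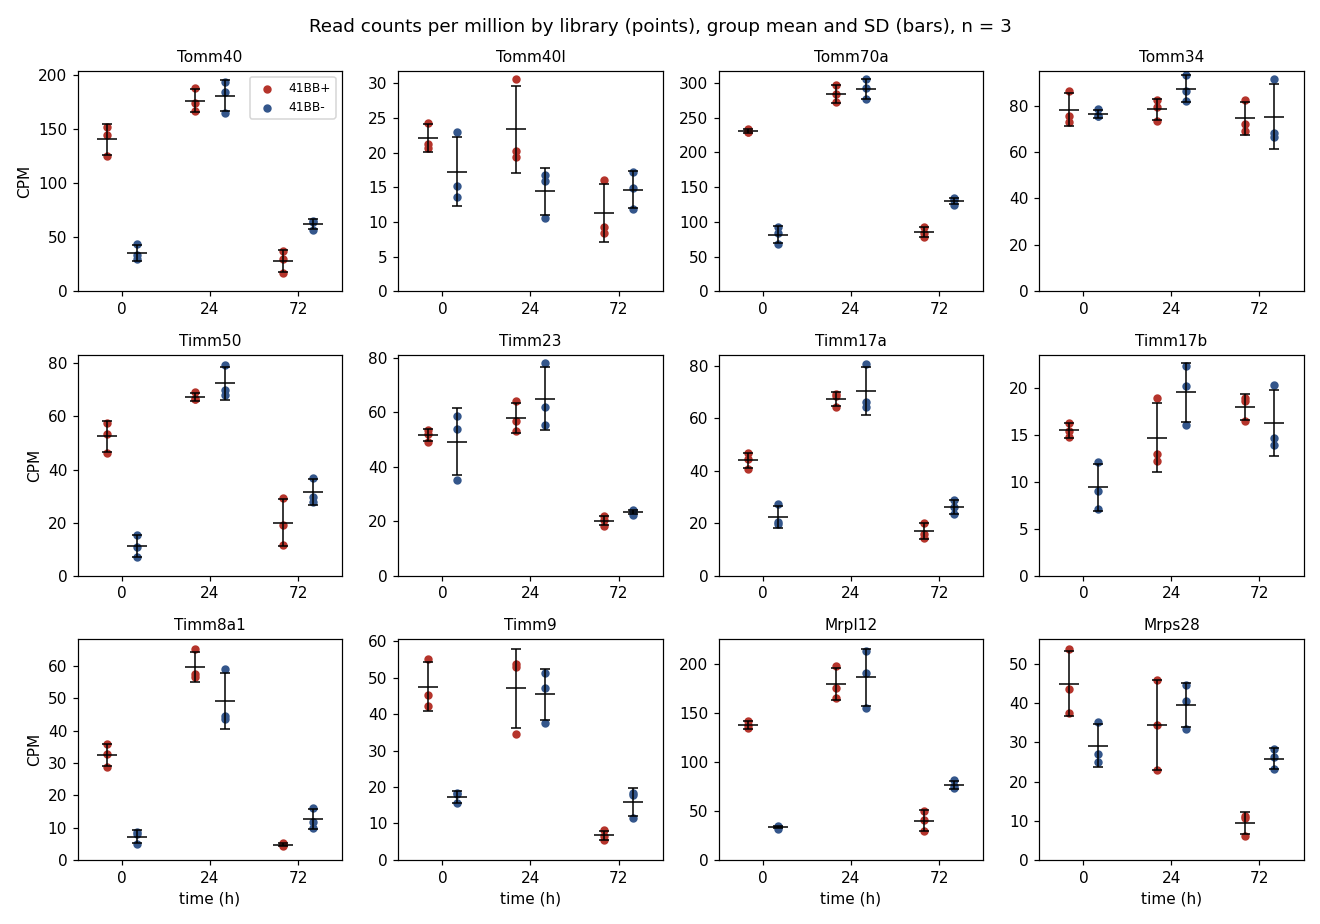
CPM of 12 members by library at 0, 24 and 72 h (points; bars, group mean and SD, n = 3; 41BB+ left of 41BB- at each time; all axes start at 0). Tomm40, Timm50, Timm8a1 and Mrpl12 lie higher in 41BB+ libraries at 0 h and at like levels at 24 h, and their means are lower in 41BB+ cells at 72 h, while Tomm34 keeps group means of 74.6 to 87.3 CPM throughout.

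On the first day of stimulation most of these genes rose in 41BB- cells. In 41BB- cells 80 of 97 members were higher at 24 h than at 0 h and 0 were lower (29.0% and 27.6% of all genes tested), with a median log2FC of 1.05 against -0.07 over all genes. In 41BB+ cells 22 were higher and 2 lower (18.1% and 16.5% of all genes), with a median of 0.31 against -0.06. With limma voom 36 members were higher and 3 lower in 41BB+ cells. The largest rises in 41BB- cells were those of Timm50, at 72.5 ± 6.16 CPM at 24 h and 11.1 ± 4.14 CPM at 0 h (log2FC 2.63, adjusted p = 5.15e-10), and Timm8a1, at 49.1 ± 8.67 CPM at 24 h and 7.21 ± 2.095 CPM at 0 h (log2FC 2.69, adjusted p = 1.31e-10). In 41BB+ cells Timm50 stood at 67.5 ± 1.47 CPM at 24 h and 52.5 ± 5.79 CPM at 0 h, and did not pass (log2FC 0.41, adjusted p = 0.136; 0.0273 with limma voom and 0.0247 when only the 2 compared groups were fitted, both past the threshold). The largest rises in 41BB+ cells were those of 2 large subunit genes. Mrpl45 averaged 72.7 ± 0.444 CPM at 24 h and 34.4 ± 4.44 CPM at 0 h (log2FC 1.13, SE 0.22, adjusted p = 0.000186). Mrpl18 averaged 149 ± 8.81 CPM at 24 h and 73.9 ± 14.1 CPM at 0 h (log2FC 1.05, SE 0.16, adjusted p = 5.91e-06). In 41BB- cells Mrpl18 (log2FC 1.77, adjusted p = 6.69e-10) and Mrpl45 (log2FC 1.51, adjusted p = 3.52e-06) also rose. The 2 that fell in 41BB+ cells were the large subunit genes Mrpl24 and Mrpl52. Mrpl24 averaged 53.5 ± 1.34 CPM at 24 h and 79.8 ± 1.98 CPM at 0 h (log2FC -0.53, SE 0.14, adjusted p = 0.00432). Mrpl52 (log2FC -0.57, adjusted p = 0.0192) no longer passed without 41BB+ replicate 1 (0.0955) or 2 (0.0983) at 0 h or replicate 1 (0.0827) or 2 (0.152) at 24 h.

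The interaction of population and time tests whether the change from 0 h to 24 h differed between the populations. It was negative, a lower log2FC from 0 h to 24 h in 41BB+ than in 41BB- cells, for 46 of 97 members and positive for 0, where 14.0% of all genes tested were negative and 9.03% positive. Among the 46 was Mrpl52, which had a log2FC of -0.57 in 41BB+ and 0.96 in 41BB- cells. Its lowest values were those of Timm50 (log2FC -2.21, SE 0.33, adjusted p = 8.97e-06) and Tomm5 (log2FC -2.07, SE 0.3, adjusted p = 5.24e-06). Mrpl12 (log2FC -1.97), Timm8b (log2FC -1.93) and Tomm40 (log2FC -1.88) followed. The 0 h libraries enter both this test and the comparison at 0 h, so these tests are not independent.

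Between 24 h and 72 h many of the genes fell in both populations. In 41BB+ cells 79 of 97 were lower at 72 h and 1 was higher (26.3% and 26.2% of all genes), with a median log2FC of -0.99 against 0.03 over all genes. In 41BB- cells 47 were lower and 2 higher (18.2% and 22.6%), with a median of -0.51 against 0.04, and all 47 were also lower in 41BB+ cells. Timm8a1 had 4.39, 5.24 and 4.58 CPM at 72 h and 57.5, 65.2 and 56.5 CPM at 24 h in 41BB+ libraries, a fall by 11.98-fold (log2FC -3.58, SE 0.25, adjusted p = 1.03e-12). In 41BB- cells it stood at 12.6 ± 3.105 CPM at 72 h and 49.1 ± 8.67 CPM at 24 h (log2FC -1.82, SE 0.22, adjusted p = 1.10e-07). Timm10 fell in 41BB- cells by 5.35-fold, at 5.16 ± 0.811 CPM at 72 h and 30.7 ± 2.99 CPM at 24 h (log2FC -2.42, adjusted p = 3.68e-07). Tomm40 stood at 27.98 ± 10.01 CPM at 72 h and 177 ± 10.7 CPM at 24 h in 41BB+ cells (log2FC -2.59, adjusted p = 2.82e-12), and at 62.1 ± 4.82 CPM at 72 h and 181 ± 14.3 CPM at 24 h in 41BB- cells (log2FC -1.39, adjusted p = 1.84e-07). Timm23, which did not pass between the populations at any time, fell in both, at 20.2 ± 1.78 CPM at 72 h and 57.96 ± 5.68 CPM at 24 h in 41BB+ cells (log2FC -1.45, adjusted p = 1.54e-07) and at 23.3 ± 0.83 CPM at 72 h and 65.1 ± 11.7 CPM at 24 h in 41BB- cells (log2FC -1.33, adjusted p = 9.35e-07). The 2 that were higher in 41BB- cells were Mrpl4 (log2FC 0.55, adjusted p = 0.0355) and Mrpl58 (log2FC 0.44, adjusted p = 0.0347). Both calls were near the threshold and were mostly lost with 1 library left out. Without any 1 of the 6 libraries of 41BB- cells at 24 h and 72 h Mrpl58 had an adjusted p of 0.0512 to 0.186. Mrpl4 had 0.0815 to 0.196 without any of them but replicate 3 of 72 h. With library totals as the scale the adjusted p was 0.172 for Mrpl58 and 0.12 for Mrpl4. The 1 member that rose in 41BB+ cells was Mrpl58, at 60.1 ± 7.005 CPM at 72 h and 41.3 ± 7.35 CPM at 24 h (log2FC 0.61, SE 0.16, adjusted p = 0.00273).

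This second change also differed between the populations. Its interaction was negative, a lower log2FC from 24 h to 72 h in 41BB+ than in 41BB- cells, for 27 of 97 members and positive for 0, where 11.4% of all genes were negative and 6.10% positive. The lowest values were those of Timm8a1 (log2FC -1.76, SE 0.33, adjusted p = 0.000375) and Timm9 (log2FC -1.36, SE 0.33, adjusted p = 0.00397), and Tomm40 (log2FC -1.2, adjusted p = 0.000942), Mrps28 (log2FC -1.34, adjusted p = 0.00629), Mrpl12 (log2FC -0.97, adjusted p = 0.00116) and Tomm70a (log2FC -0.66, adjusted p = 0.00341) were also negative. The count changed with the library left out. It was 17 without 41BB+ replicate 1 or replicate 2 at 24 h and 15 without replicate 3, 16 without 41BB- replicate 1 and 14 without replicate 2 at 24 h, and 16 without 41BB- replicate 2 at 72 h. With a block on replicate number within each time the count rose, as given further on. The 24 h and 72 h libraries enter both this test and the comparisons of populations at those times. The 2 interactions also share the 24 h libraries, so these tests are not independent. In all, 20 members were negative in both interactions and 53 in at least 1 of them. The shares of all genes for these last counts are not given here.

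Set against the unstimulated cells, 72 h left the populations on opposite sides of their starting levels. In 41BB+ cells 63 of 97 members were lower at 72 h than at 0 h and 0 higher (23.4% of all genes each way), with a median log2FC of -0.67 against -0.05 over all genes. In 41BB- cells 52 were higher and 2 lower (26.8% and 21.1%), with a median of 0.59 against 0.00. The share of all genes tested that were lower in 41BB+ and higher in 41BB- cells is not given here. For 28 members both held, lower in 41BB+ and higher in 41BB- cells, a count that is a description only. Mrpl12 was one of them, at 40 ± 10.4 CPM at 72 h and 138 ± 3.97 CPM at 0 h in 41BB+ cells (log2FC -1.67, adjusted p = 3.16e-10) and 76.6 ± 4.19 CPM at 72 h and 33.4 ± 1.41 CPM at 0 h in 41BB- cells (log2FC 1.27, adjusted p = 1.09e-07). Tomm70a was another, at 84.9 ± 7.21 CPM at 72 h and 231 ± 2.76 CPM at 0 h in 41BB+ (log2FC -1.32, adjusted p = 1.16e-10) and 129.9 ± 4.801 CPM at 72 h and 81.5 ± 12.2 CPM at 0 h in 41BB- cells (log2FC 0.74, adjusted p = 4.35e-06). The 2 members that were lower in 41BB- cells were Timm23, at 23.3 ± 0.83 CPM at 72 h and 49.2 ± 12.3 CPM at 0 h (log2FC -1.0, adjusted p = 5.43e-05), and Mrpl24, at 45.8 ± 5.98 CPM at 72 h and 70.4 ± 6.901 CPM at 0 h (log2FC -0.55, adjusted p = 0.00225).

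The populations' differences at 0 h and at 72 h share no library. Of the 78 members higher in 41BB+ cells at 0 h, 29 (37.2%) were lower in them at 72 h, and these were 96.7% of the 30 lower at 72 h. Over all genes tested, 1237 had this pattern, 42.4% of the 2916 higher at 0 h and 77.2% of the 1602 lower at 72 h. The 1 member lower at 72 h without a call at 0 h was Mrpl16. Across the 97 members, log2FC at 72 h and at 0 h had a Pearson r of -0.57, and across all 13150 genes tested of -0.42, given as descriptions since genes are not replicates.

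**Figure D5:**
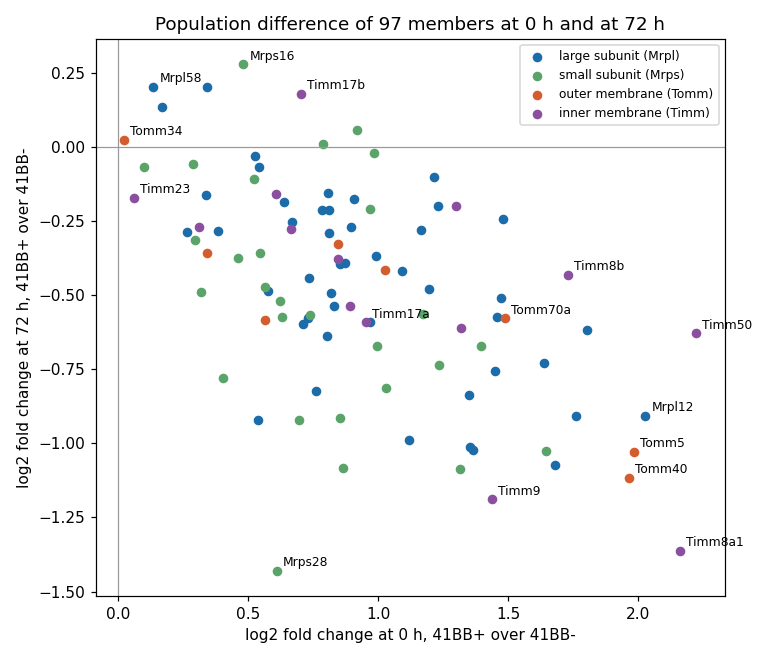
Each point is 1 of the 97 tested members, with its log2FC of 41BB+ over 41BB- cells at 0 h on the x axis and at 72 h on the y axis, coloured by class. Of the points 89 lie right of 0 and below 0, with Timm8a1 (2.16 and -1.36) farthest out, and Tomm34 and Timm23 lie near 0 on both axes.

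Paralogs were set side by side. Tomm40l, a second Tom40-like gene whose exons overlap Nr1i3 on the opposite strand, averaged 22.1 ± 1.97 CPM in 41BB+ cells, against 17.2 ± 4.98 CPM in 41BB- cells at 0 h (log2FC 0.34, adjusted p = 0.367, not past the threshold), where Tomm40 was 3.903-fold higher. At 24 h in 41BB- cells, Tomm40 rose (log2FC 2.26, adjusted p = 2.55e-11) while Tomm40l stood at 14.4 ± 3.39 CPM at 24 h and 17.2 ± 4.98 CPM at 0 h and did not pass (log2FC -0.33). Timm17a fell from 24 h to 72 h in 41BB+ cells (log2FC -1.93, adjusted p = 4.68e-10), while Timm17b stood at 17.99 ± 1.36 CPM at 72 h and 14.7 ± 3.68 CPM at 24 h and did not pass (log2FC 0.36, adjusted p = 0.257). Of the paralogs Mrps18a, Mrps18b and Mrps18c, the second was lower in 41BB+ cells at 72 h. Mrps18b averaged 11.5 ± 4.87 CPM in 41BB+ cells, against 22.3 ± 5.62 CPM in 41BB- cells (log2FC -0.92, adjusted p = 0.00891). It no longer passed without 41BB+ replicate 3 (adjusted p = 0.111) or 41BB- replicate 2 (0.112). Mrps18a (log2FC -0.52, adjusted p = 0.0758) and Mrps18c (log2FC -0.49, adjusted p = 0.428) did not pass there. Differences between paralogs were not themselves tested.

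Genes that work with these machines under other symbols were read from lists in the same fit, and their counts are to be read against the 22.2% higher and 17.3% lower of all genes tested at 0 h, and the 6.71% higher and 12.2% lower at 72 h. All 5 further ribosomal proteins (Dap3, Ptcd3, Gadd45gip1, Chchd1 and Aurkaip1) were higher in 41BB+ than in 41BB- cells at 0 h, and 4 of them were lower at 72 h. Of 24 import partners 14 were higher and 1 lower at 0 h, and 0 higher and 11 lower at 72 h. Among these, Hspd1, the matrix chaperonin, averaged 570.3 ± 47.8 CPM in 41BB+ cells, against 83.5 ± 10.9 CPM in 41BB- cells, at 0 h (log2FC 2.76, adjusted p = 2.72e-16), and 85.8 ± 14.5 CPM in 41BB+ cells, against 260.3 ± 13.9 CPM in 41BB- cells, at 72 h (log2FC -1.57, adjusted p = 4.22e-10). Of 15 translation factors 7 were higher and 0 lower at 0 h, led by Tufm, the elongation factor Tu of mitochondria (log2FC 1.82, adjusted p = 3.15e-10). At 0 h the 17 mitochondrial aminoacyl-tRNA synthetases had 2 higher and 1 lower, and the 26 genes of ribosome assembly and ribosomal RNA modification 8 higher and 1 lower. Of 17 genes of mitochondrial DNA and RNA maintenance 9 were higher and 1 lower at 0 h, among them Lrpprc, which stabilises mitochondrial messages (log2FC 1.35, adjusted p = 8.29e-11). At 72 h no gene of these last 4 lists was higher, and 2 translation factors, 2 synthetases, 4 assembly and modification genes and 1 maintenance gene were lower.

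Respiratory chain subunits are encoded in both genomes. Of 76 tested nuclear subunits of oxidative phosphorylation 57 were higher and 1 lower in 41BB+ cells at 0 h (22.2% and 17.3% of all genes tested), and 1 was higher and 22 lower at 72 h. From 0 h to 24 h in 41BB+ cells, 5 of these rose and 11 fell (18.1% and 16.5% of all genes), while in 41BB- cells 55 rose and 3 fell (29.0% and 27.6%). Of the 13 proteins encoded in mitochondrial DNA 2 were higher and 0 lower in 41BB+ cells at 0 h, 0 passed at 72 h between the populations, and from 0 h to 24 h 0 were higher and 11 lower in 41BB+ and 0 higher and 8 lower in 41BB- cells. Cytosolic ribosomal proteins had a median log2FC of 0.04 at 0 h between the populations, with 13 of 82 higher and 6 lower, both under the shares of all genes. At 24 h against 0 h, 51 of these were lower and 2 higher in 41BB+ cells, and 36 lower and 8 higher in 41BB- cells. The 2 kinds of ribosomal protein genes thus had medians of opposite sign in both populations on the first day. In 41BB- cells they were 1.12 for the 47 Mrpl and 0.84 for the 28 Mrps genes, and -0.28 for the cytosolic ones. In 41BB+ cells they were 0.29, 0.4 and -0.43 in the same order. Tests of these differences were not made.

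Start regions were at hand for 92 of the 104 members. They were searched on both strands for CACGTG (the E-box bound by MYC and related factors), CCGGAAG (ETS factors, GABPA among them), GCATGCG (the core of the NRF1 motif) and ATGGCGG (part of the YY1 motif). CCGGAAG was in 38.0% of the members' windows, 19.4% of those of all tested genes at hand and 9.12% of all 27025 windows. For ATGGCGG these shares were 17.4%, 8.70% and 4.19%, for CACGTG they were 10.9%, 10.3% and 7.24%, and for GCATGCG 9.78%, 6.95% and 3.64%. Most ATGGCGG matches of members lay just after the start, at 3 to 31, while those of Mrps11 (-109) and Timm8b (-118) lay before it. ATG is also the start codon, so such a match can be the beginning of coding sequence, which was not tested. The windows held 20.9 CpG on average for members and 21.6 for all tested genes. The 9 tested members with CACGTG, Timm8a1 and Timm9 among them, had a median log2FC at 0 h of 1.30, and the 76 without it 0.81. At 72 h these medians were -0.48 and -0.45. With and without CCGGAAG (31 and 54 members) the medians were 0.80 and 0.86 at 0 h, and -0.29 and -0.51 at 72 h. For GCATGCG (8 and 77 members) they were 0.74 and 0.85 at 0 h, and -0.35 and -0.47 at 72 h. For ATGGCGG (15 and 70 members) they were 0.89 and 0.83 at 0 h, and -0.54 and -0.42 at 72 h. Differences between these medians were not tested. These matches are descriptions of the letters in a window and say nothing on binding in these cells.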

How the data were processed

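The deposited table holds whole-number read counts of 55487 genes in 18 libraries, not normalized by the authors, and all values here come from it. Per the labels' protocols, libraries were made with version v2 of a stranded SMARTer total RNA-Seq kit. Per the submitters' processing notes, the tools were FastQC 0.11.9, Trimmomatic 0.38, HISAT2 2.2.1 and featureCounts, with GRCm38. How strand and multiply matching reads were handled, and with which annotation, was not given in the sources used here, so reads of overlapping or antisense genes and of close copies cannot be told apart.

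Symbols, coordinates and exon lengths came from GENCODE M21, which gave symbols for 55227 gene IDs. The members were all protein-coding genes with the 4 prefixes. The members and lists were chosen with earlier results of these data known. Genes were kept by filterByExpr (minimum count 10, minimum total 15), which left 13150. edgeR 4.0.16 in R 4.3.3 with TMM factors fitted 1 mean per group to all 18 libraries, with robust quasi-likelihood dispersions (common biological coefficient of variation 0.18). Contrasts of populations, times and their interaction were tested with Benjamini-Hochberg adjustment over all genes tested, at 0.05. The step was tested on simulated data. CPM are counts over the library total, RPKM are CPM per kilobase of exon, and counting error limits members with few counts. Within a group, replicate libraries differed by more than sampling noise. Genes were named by a rule: members fixed by role, paralog sets, the 2 highest and 2 lowest log2 fold changes of each class or comparison, called members against the main direction, untested members, and the 2 highest levels per length. Alternatives were DESeq2 1.42.0, other scalings, no filter, limma 3.58.1 voom, a 1.5-fold minimum, replicate blocks, only the compared groups, removal of mitochondrial and ribosomal genes, and each library left out. Start regions came from RefSeq (GRCm38.p6). Python 3.11.15 with pandas 2.3.3, numpy 2.4.6 and matplotlib 3.10.9 did the rest. A deposited sample sheet was not used. The value of 1 marker gene is not reported here.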

Additional observations from a re-analysis of the deposited data

Results flagged for a closer look

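The change from 0 h to 24 h differed between 41BB+ and 41BB- cells by a test of the interaction for 46 of the 97 tested members, all with a lower log2FC in 41BB+ than in 41BB- cells. Among import genes the interaction log2FC was -2.21 for Timm50, -2.07 for Tomm5, -1.93 for Timm8b, -1.88 for Tomm40, -1.76 for Timm8a1, -1.59 for Timm10, -1.41 for Tomm70a, -0.90 for Timm17a, -0.83 for Tomm22, -0.64 for Tomm20 and -0.63 for Timm44, and it was -1.97 for Mrpl12. The edgeR quasi-likelihood adjusted p ran from 3.89e-08 for Mrpl12 to 0.0483 for Timm44, and the call of Timm44 was lost in 10 of the 12 fits with 1 library left out.

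The change from 24 h to 72 h differed for 27 members, all again with the lower log2FC in 41BB+ cells. The interaction log2FC was -1.76 for Timm8a1, -1.36 for Timm9, -1.28 for Mrps18b, -1.2 for Tomm40, -1.16 for Tomm40l, -0.97 for Mrpl12, -0.80 for Timm44, -0.66 for Tomm70a and -0.54 for Tomm20. The calls of Tomm40l (adjusted p = 0.0462), Tomm20 (0.0454) and Timm44 (0.0143) were lost in 11, 10 and 5 of the 12 fits with 1 library left out.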

How the results depend on the processing

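No member reversed its sign between 2 passing calls under any alternative run, and the counts of members called stayed within 1.5 times of those given under DESeq2, RLE factors, library totals, no filter on low counts and removal of mitochondrially encoded and ribosomal genes. With a required change of more than 1.5-fold (glmTreat) the counts were 37 between populations at 0 h and 3 at 72 h, 2 at 24 h against 0 h in 41BB+, 50 (41BB+) and 17 (41BB-) at 72 h against 24 h, 35 (41BB+) and 20 (41BB-) at 72 h against 0 h, and for the interactions 20 over the first and 3 over the second interval. This setting asks for larger changes by construction. At 72 h between populations 15 were called when only those groups were fitted, and voom called 39 at 24 h against 0 h in 41BB+ cells. The cause of these 2 was not tested.

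With 1 library left out, counts ran from 59 to 72 at 0 h, 0 to 0 at 24 h and 19 to 29 at 72 h between populations. At 24 h against 0 h they ran from 18 to 26 in 41BB+ and 76 to 83 in 41BB- cells, at 72 h against 24 h from 71 to 74 in 41BB+ and 40 to 53 in 41BB- cells, and at 72 h against 0 h from 49 to 56 in 41BB+ and 46 to 53 in 41BB- cells. They ran from 34 to 47 for the first and from 14 to 26 for the second interaction. Library totals in place of TMM moved the median over all genes from -0.05 to -0.17 for 72 h against 0 h in 41BB+ cells and for the first interaction, from 0.02 to -0.10 between populations at 24 h, and from 0.04 to -0.11 for 72 h against 24 h in 41BB- cells.

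The replicate number, which the library titles give as Exp01, Exp02 and Exp03 in every group without saying what it marks, was tried as a block. Deviations from the group means over 12692 genes correlated with a median r of 0.107 in the 9 pairs of the same time and number (lowest -0.0427, 5 over 0.1, among them all 3 at 24 h). In the 18 pairs of the same time and another number the median r was -0.0635, with 0 over 0.1. Of the 18 libraries, 14 correlated best with the other library of their number and time. This is a hint from the data, and the numbers were not taken as pairs. With the block, 78, 0 and 30 members were called between populations at 0, 24 and 72 h and 45 and 26 in the interactions. With a block within each time the same 5 counts were 79, 0, 39, 52 and 32.

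Of a total without mitochondrially encoded and the 10 most abundant genes, the members took 0.558% in 41BB+ and 0.296% in 41BB- cells at 0 h, 0.644% in 41BB+ and 0.638% in 41BB- cells at 24 h, and 0.313% in 41BB+ and 0.416% in 41BB- cells at 72 h. Without Tomm70a, 41BB+ cells had 0.413% at 0 h and 0.490% at 24 h. Leaving out 1 library kept the members' share of all counts within 0.433% to 0.439% in 41BB+ and 0.223% to 0.232% in 41BB- cells at 0 h, 0.507% to 0.526% in 41BB+ and 0.504% to 0.545% in 41BB- cells at 24 h, and 0.224% to 0.245% in 41BB+ and 0.310% to 0.333% in 41BB- cells at 72 h. Totals of 3085241 to 4239795 counts limit what can be seen for the least abundant members.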

Other observations

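Timmdc1, the complex I assembly factor that shares the prefix, averaged 35.9 ± 6.06 CPM in 41BB+ cells, against 22.4 ± 7.798 CPM in 41BB- cells, at 0 h and 22.4 ± 5.202 CPM in 41BB+ cells, against 27.9 ± 2.36 CPM in 41BB- cells, at 72 h (SD, n = 3 each). Timmdc1 passed between the populations at 0 h and did not pass at 72 h. Mrps36 averaged 19.1 ± 6.13 CPM in 41BB+ cells, against 11 ± 0.266 CPM in 41BB- cells, at 0 h and 13.4 ± 2.82 CPM in 41BB+ cells, against 18.6 ± 1.16 CPM in 41BB- cells, at 24 h. In edgeR's quasi-likelihood test Mrps36 passed at 0 h (log2FC 0.79, adjusted p = 0.0283). At 24 h it did not pass (log2FC -0.36, adjusted p = 0.706). Malat1, a noncoding RNA kept in the nucleus, had 0.371% ± 0.0336 of all counts in 41BB+ cells, against 0.736% ± 0.107 in 41BB- cells, before stimulation. At 72 h it had 0.223% ± 0.0311 in 41BB+ cells, against 0.145% ± 0.0195 in 41BB- cells. The order at 0 h and at 72 h was opposite to that of the members. At 24 h Malat1 had 0.137% ± 0.0115 in 41BB+ cells, against 0.220% ± 0.0461 in 41BB- cells. Its libraries did not overlap there, while those of the members' share did. The part of Malat1 in the members' differences was not tested.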
